A study of Mus musculus with 12 samples.

Results

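The genes described here changed in the same direction in 2 comparisons of cells expressing Prdm16s with wild-type cells, one in megakaryocyte-erythroid progenitors (MEP, which give rise to red cells and platelets) and one in marrow. Of 24107 genes in the deposited table, 11462 reached 1 FPKM (reads of a gene scaled by its length and by the depth of the library) in at least 3 of the 12 libraries and were tested. A gene was a member when its change averaged over both populations passed the test and its changes in MEP and in marrow each passed it with the same sign. This held for 576 genes, 229 higher and 347 lower in the Prdm16s libraries.

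All 12 libraries came from C57BL/6 mice, in 4 groups of 3. Wild-type mice gave the control MEP and the control whole marrow cells. The leukemic MEP and the GFP+ marrow cells were from leukemic recipients, and both carry the label Prdm16s, the short form of the zinc finger transcription factor Prdm16 that lacks the PR domain. Ages were not given in the labels, nor whether mice were pooled or the leukemic MEP were also sorted on GFP. Expression of Prdm16s, leukemia and being a recipient come together in both comparisons and cannot be told apart. The GFP+ marrow cells were selected and the control marrow was not, so in marrow the selection also goes with the group. Whether replicates are separate mice is not stated in the labels, so p-values reflect only how these libraries spread, which may be technical.

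Libraries stood apart in ways that bear on the results. The whole reads behind the FPKM values came to between 6.72 and 9.71 M (1 M is 1000000 reads) per library, except 0.572 M in leukemic MEP 3 and 1.15 M in GFP+ marrow 2. Leukemic MEP 3 was high in genes of granulocyte precursors, with Mpo, the peroxidase of their granules, at 167, 150.2 and 7897 FPKM in leukemic MEP 1, 2 and 3, while control MEP had 3.67 to 28.7. Gata1, a master regulator of red cells and platelets, was at 242, 209.6 and 37.7 FPKM in the same libraries. Xist, which female cells express, was at 39.2 FPKM or more in libraries 1 and 2 of both Prdm16s groups and at 0.0904 or less in the other 8, so sex goes in part with the Prdm16s groups. Over all tested genes leukemic MEP 3 correlated with leukemic MEP 1 and 2 at a Pearson r of 0.806 and 0.794, and with the GFP+ marrow libraries at 0.871 to 0.904. On the first principal component it lay at 67.4, beside GFP+ marrow at 58.8 to 71.3, while leukemic MEP 1 and 2 lay at -13.0 and -17.3. It thus resembled marrow more than its own group, which bears on changes called in both populations. Several results that lean on it are given with and without it, but not all.

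Normal MEP divide between red cell precursors, which build haemoglobin, a spectrin-based membrane skeleton and blood group proteins under GATA1 and KLF1, and megakaryocytes, which build platelets under GATA1, FLI1 and NFE2. Whole marrow holds red cell precursors too, among many more granulocytes and their precursors. Prdm16 is active in blood stem cells, and forms of it without the PR domain have been found in myeloid leukemias.

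Over all tested genes, 3508 (30.6%) were called on the average change (limma, Benjamini-Hochberg adjusted p below 0.05), 1707 of them higher (14.9%) and 1801 lower (15.7%). Only 576 (5.03%) were called in both populations in the same direction, 229 higher (2%) and 347 lower (3.03%). Another 1903 were called on the average and in MEP but not in marrow, 340 in marrow but not in MEP, and 687 in neither. The MEP comparison called 2976 genes (26%), 1567 higher (13.7%) and 1409 lower (12.3%). The marrow comparison called 1037 (9.05%), 346 higher (3.02%) and 691 lower (6.03%). The MEP and marrow comparisons share no library, although they share 1 estimate of the spread. Whether MEP and marrow libraries of the same number came from the same mouse is not stated, so the comparisons may not be independent. Of the 607 genes called in both, 576 moved the same way (94.9%) and 31 moved in opposite ways (0.27% of the tested genes). Across all 11462 genes the changes in MEP and marrow had a Pearson r of 0.504 and a Spearman rho of 0.502, given as a description.

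**Figure D1:**
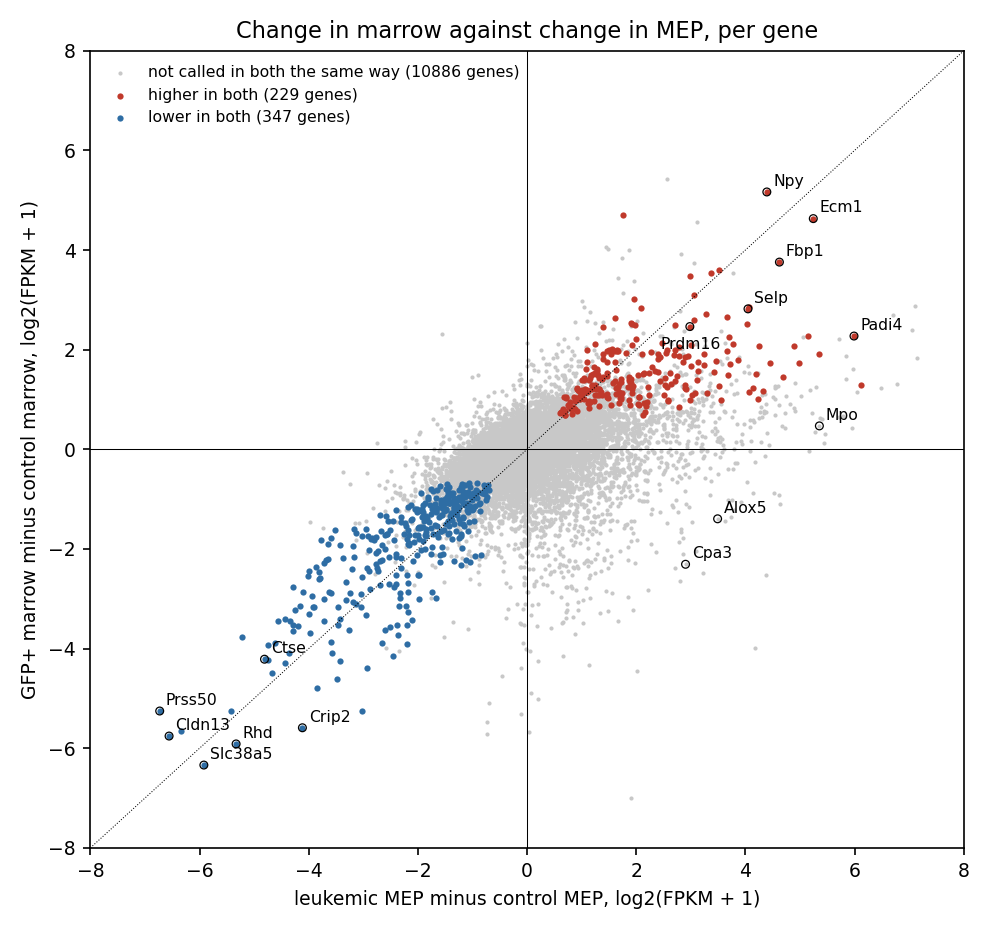
Change in marrow (vertical axis) against change in MEP (horizontal axis) for each of 11462 tested genes, both in log2(FPKM + 1), with the dotted line marking equal change. The 229 genes higher in both (red) lie mostly below the line, with larger changes in MEP, while Alox5 and Cpa3 are higher in MEP and lower in marrow.

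Changes are given in log2 units of FPKM + 1, where 1 unit is a 2-fold change for an abundant gene, and changes of low genes are understated. Among the 229 rises, the median change was 1.86 in MEP and 1.38 in marrow. Among the 347 falls it was -1.88 in MEP and -1.62 in marrow, and the median of all tested genes on the average was -0.03. These medians describe the genes chosen and have no test. The change was at least 1 unit in each population for 177 rises and 279 falls, and at least 2 units in each for 25 rises and 107 falls. The rises thus held fewer large shared changes than the falls. In mean FPKM, the middle gene of the rises went from 2.94 in control MEP to 19.9 in leukemic MEP and from 9.95 in control marrow to 31.5 in GFP+ marrow. The middle gene of the falls went from 33.0 to 6.48 in MEP and from 17.8 to 4.06 in marrow.

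The levels of MEP and of marrow differ for many genes, so separation within each population need not mean separation of all 6 Prdm16s libraries from all 6 control libraries. Within each population the Prdm16s and control libraries did not overlap for any of the 229 rises, or for 344 of the 347 falls. All 6 Prdm16s libraries lay above all 6 control libraries for 129 of the 229 rises, against 345 of the 11462 tested genes (3.01%). They lay below them for 280 of the 347 falls, against 587 of the tested genes (5.12%). The members were chosen by tests on these same libraries, so such separation is built into the choice and is only a description. Chromosome X held 13 of the rises and 6 of the falls, and 356 of the tested genes; no member lay on the Y chromosome. At the threshold, Tlk1 was the last gene inside, with an adjusted p of 0.0499 in marrow (limma), and As3mt the first outside, with 0.0502.

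Prdm16 itself was a member (chromosome 4 from 154316122 to 154637360, GRCm38.p6). It was at 0.833, 0.363 and 0.471 FPKM in control MEP, at 15.3, 6.35 and 14.1 in leukemic MEP, at 0.829, 0.632 and 0.957 in control marrow and at 9.99, 7.09 and 10.03 in GFP+ marrow. Every Prdm16s library lay above every control library, and leukemic MEP 2 was the lowest of the 6. The average rise was 2.72 ± 0.23 (SE; limma, adjusted p = 6.74e-06), and it was 2.65 without leukemic MEP 3. Reads of the short form and of the full gene are not told apart in the table.

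Red cell genes were the list with the most falls. Of 39 tested members of the erythroid list, 29 fell and 2 rose on the average, and 21 fell and 1 rose in both populations. The median average change of the list was -2.33. Their mean level per library, in log2(FPKM + 1), was 5.57 to 5.76 in control MEP and 3.29 to 4.54 in leukemic MEP, the lowest being leukemic MEP 3. It was 5.30 to 5.57 in control marrow and 2.35 to 3.02 in GFP+ marrow. In RNA from many cells, fewer cells of a type and less RNA per cell cannot be told apart.

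Genes for proteins of the red cell surface were among the largest falls. Rhd, a blood group antigen of the Rhesus complex (chromosome 4 from 134864536 to 134896172), was at 422, 594 and 526 FPKM in the control MEP libraries, 17.2, 4.91 and 17.9 in those of leukemic MEP, 176, 253 and 272 in control marrow and 1.63, 0 and 20.3 in GFP+ marrow. The groups were far apart in both populations, and GFP+ marrow 3 kept more than the other GFP+ libraries. The average fall was 5.62 ± 0.59 (limma, adjusted p = 3.34e-05). Cldn13, a claudin of mouse red cell precursors (chromosome 5 from 134914250 to 134915530), was at 299, 476 and 414 FPKM in control MEP, at 4.78, 0.686 and 6.26 in leukemic MEP, at 144, 215 and 221 in control marrow and at 0.143, 0.866 and 19.7 in GFP+ marrow. Here too GFP+ marrow 3 was the highest of its group, and no Prdm16s library reached the lowest control library. Ermap, an erythroblast membrane protein, was at 223, 143 and 143 FPKM in the control MEP libraries, 4.80, 2.99 and 11.02 in those of leukemic MEP, 56.4, 59.2 and 57.8 in control marrow and 0.260, 0 and 12.9 in GFP+ marrow. Its fall of 4.59 was 2.94 in a fit with a term for the libraries that express Xist (limma, adjusted p = 0.000235). That term was chosen after seeing the data. Of the Prdm16s libraries only leukemic MEP 3 and GFP+ marrow 3 counted as not expressing Xist. The average change in that fit thus sets these libraries against the controls, and sex cannot be told apart from them.

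Kel, the endopeptidase of the Kell blood group, was at 82.4, 70.8 and 70.6 FPKM in control MEP, at 13.7, 12.98 and 7.32 in leukemic MEP, at 34.9, 36.8 and 39.3 in control marrow and at 0.730, 1.84 and 2.44 in GFP+ marrow. It fell by 3.27 ± 0.20 on the average (limma, adjusted p = 6.26e-07), and all 6 Prdm16s libraries were below all 6 controls. Aqp1, the water channel that carries the Colton antigen, fell by 2.92 in MEP and 4.40 in marrow. Car1 and Car2, the abundant carbonic anhydrases of red cells, went in mean FPKM from 5747 and 4804 to 572 and 514 in MEP. In marrow they went from 1653 and 1850.2 to 197 and 128. Aqp1, Car1 and Car2 were picked after their values were seen. Car1 was not called in both populations in the fit with the Xist term.

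Klf1 and the receptor gene Epor fell in both populations. Gata2, Tal1 and Zfpm1 were higher in leukemic MEP 1 and 2 than in control MEP, but Tal1 was lower in GFP+ marrow than in control marrow. Klf1, the activator of the globin and membrane genes, was at 585, 852 and 660.0 FPKM in the control MEP libraries, 278, 213 and 41.5 in those of leukemic MEP, 167, 309 and 329 in control marrow and 12.6, 24.8 and 69.9 in GFP+ marrow. Its falls of 2.34 in MEP (limma, adjusted p = 0.0236) and 3.14 in marrow (adjusted p = 0.0123) both passed, but without leukemic MEP 3 the MEP change was -1.501 with an adjusted p of 0.0521. Epor, the erythropoietin receptor, was at 109, 150.5 and 108 FPKM in control MEP, at 46.2, 37.4 and 4.41 in leukemic MEP, at 30.6, 48.3 and 55.8 in control marrow and at 4.36, 8.79 and 0 in GFP+ marrow. Without leukemic MEP 3 its MEP fall went from 2.51 to 1.52 (limma, adjusted p = 0.123). Klf1 was called in both populations in 15 of 23 alternative fits. Epor was in 10, and was lost also without any library of control MEP or control marrow or without GFP+ marrow 1 or 3. Gata1 fell by 1.72 ± 0.38 on the average (limma, adjusted p = 0.00529) but was no member, since its MEP change of -1.30 had an adjusted p of 0.0982. Without leukemic MEP 3 that change was -0.449 (limma, adjusted p = 0.218). Control MEP held 289 to 335 FPKM of Gata1, and leukemic MEP 1 and 2 held 242 and 209.6. Gata2, a related factor of earlier progenitors, was at 12.8 to 18.8 FPKM in control MEP and at 91.0, 63.3 and 33.5 in leukemic MEP 1, 2 and 3. Tal1, a partner of GATA1, was at 18.1 to 30.7 FPKM in control MEP and 33.2, 44.3 and 9.38 in those libraries, and Zfpm1, the GATA1 cofactor FOG1, at 3.96 to 6.32 and 17.1, 9.07 and 1.98. Tal1 was at 13.5, 15.8 and 17.5 FPKM in control marrow and at 1.93, 5.84 and 4.41 in GFP+ marrow, without overlap. Gata2 was at 22.3 to 22.9 FPKM in control marrow and at 27.6, 25.7 and 7.39 in GFP+ marrow. Zfpm1 was at 1.03 to 3.51 and at 1.22, 1.92 and 1.81.

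Against the direction of the list, Nfe2, a factor of megakaryocytes as well as red cells, was at 46.0, 52.9 and 45.3 FPKM in the control MEP libraries, 247, 176 and 97.7 in those of leukemic MEP, 70.9, 76.1 and 71.0 in control marrow and 171, 144 and 165 in GFP+ marrow. All 6 Prdm16s libraries were above all 6 controls, with the lowest value in leukemic MEP 3. The rise was 1.43 ± 0.19 on the average (limma, adjusted p = 0.000224), and it was called in both populations in 15 of 23 alternative fits. It lost the call with equal FPKM totals, with the Xist term and without any 1 of the 6 marrow libraries. Tmod1, the tropomodulin that caps actin filaments in the membrane skeleton, rose by 0.79 on the average (limma, adjusted p = 0.0348). That call held in 11 of 22 alternative fits. Tmod1 was low, at 0.0983 FPKM or less in control MEP, 2.55 to 5.32 in leukemic MEP and 1.51 or less in marrow. Its MEP change was 2.19 and its marrow change -0.62, and the difference passed the test (limma, adjusted p = 0.00814).

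Other leading falls were of enzymes, transporters and proteases. Slc38a5, a sodium-coupled transporter of glutamine and related amino acids (chromosome X from 8271381 to 8280179), was at 247, 298 and 277 FPKM in control MEP, at 4.64, 1.51 and 5.55 in leukemic MEP, at 83.1, 111 and 121 in control marrow and at 0.508, 0.439 and 0 in GFP+ marrow. No Prdm16s library exceeded 5.55 FPKM, and no control library was below 83.1. The average fall was 6.13 ± 0.24 (limma, adjusted p = 2.62e-08). Sphk1, the kinase that makes sphingosine 1-phosphate (chromosome 11 from 116530836 to 116536675), was at 242, 310.0 and 273 FPKM in the control MEP libraries, 3.47, 0.241 and 5.93 in those of leukemic MEP, 62.5, 100.8 and 108 in control marrow and 0, 0 and 4.55 in GFP+ marrow. No read was found in 2 of its GFP+ marrow libraries, and the fall was 6.35 in MEP and 5.65 in marrow. Pklr, the pyruvate kinase of liver and red cells, was at 76.9, 71.9 and 55.3 FPKM in control MEP, at 2.21, 0.524 and 2.39 in leukemic MEP, at 16.1, 21.4 and 21.5 in control marrow and at 0, 0 and 0.295 in GFP+ marrow.

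Prss50, a serine protease family member, was at 163, 260.0 and 185 FPKM in the control MEP libraries, 0.185, 0 and 4.60 in those of leukemic MEP, 42.2, 49.9 and 65.3 in control marrow and 0, 0 and 1.62 in GFP+ marrow. Hpn, the membrane serine protease hepsin, was at 108, 136 and 127 FPKM in control MEP, at 1.75, 0.673 and 4.18 in leukemic MEP, at 35.9, 46.6 and 50.3 in control marrow and at 0.535, 0 and 0.0590 in GFP+ marrow. Both were at 1.62 FPKM or below in GFP+ marrow, and leukemic MEP 3 was the highest of its group. Prss50 fell by 5.99 ± 0.41 and Hpn fell by 5.34 ± 0.26 (limma, adjusted p = 1.29e-06 and 9.05e-08). Ctse, the aspartic protease cathepsin E, was at 260.3, 262 and 269 FPKM in the control MEP libraries, 9.68, 6.75 and 9.12 in those of leukemic MEP, 164, 179 and 189.6 in control marrow and 10.03, 8.56 and 7.44 in GFP+ marrow. Its replicates lay close together in every group, and its fall of 4.51 ± 0.13 had the smallest adjusted p of the 24 leading genes (2.23e-09, limma).

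Of the remaining leading falls, Crip2, a small LIM domain protein, fell by 4.12 in MEP and fell by 5.59 in marrow, where it was 0.106, 0.644 and 0 FPKM in the GFP+ libraries. Atp1b2, a beta subunit of the sodium pump, fell by 4.44 and 4.30. Plpp1, a lipid phosphatase, went in mean FPKM from 27.1 to 0.382 in MEP and from 17.1 to 0.0578 in marrow. Slc40a1, the iron exporter ferroportin, was not a leading fall but also fell in both populations. It was at 37.7, 20.7 and 25.7 FPKM in control MEP and at 0.590, 0.991 and 12.02 in leukemic MEP. In marrow it was at 89.5, 64.7 and 66.0 FPKM in the controls and at 1.12, 0.991 and 0.685 in the GFP+ libraries. Leukemic MEP 3 held more than leukemic MEP 1 and 2, and without it the MEP fall was 3.99 instead of 3.03.

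**Figure D2:**
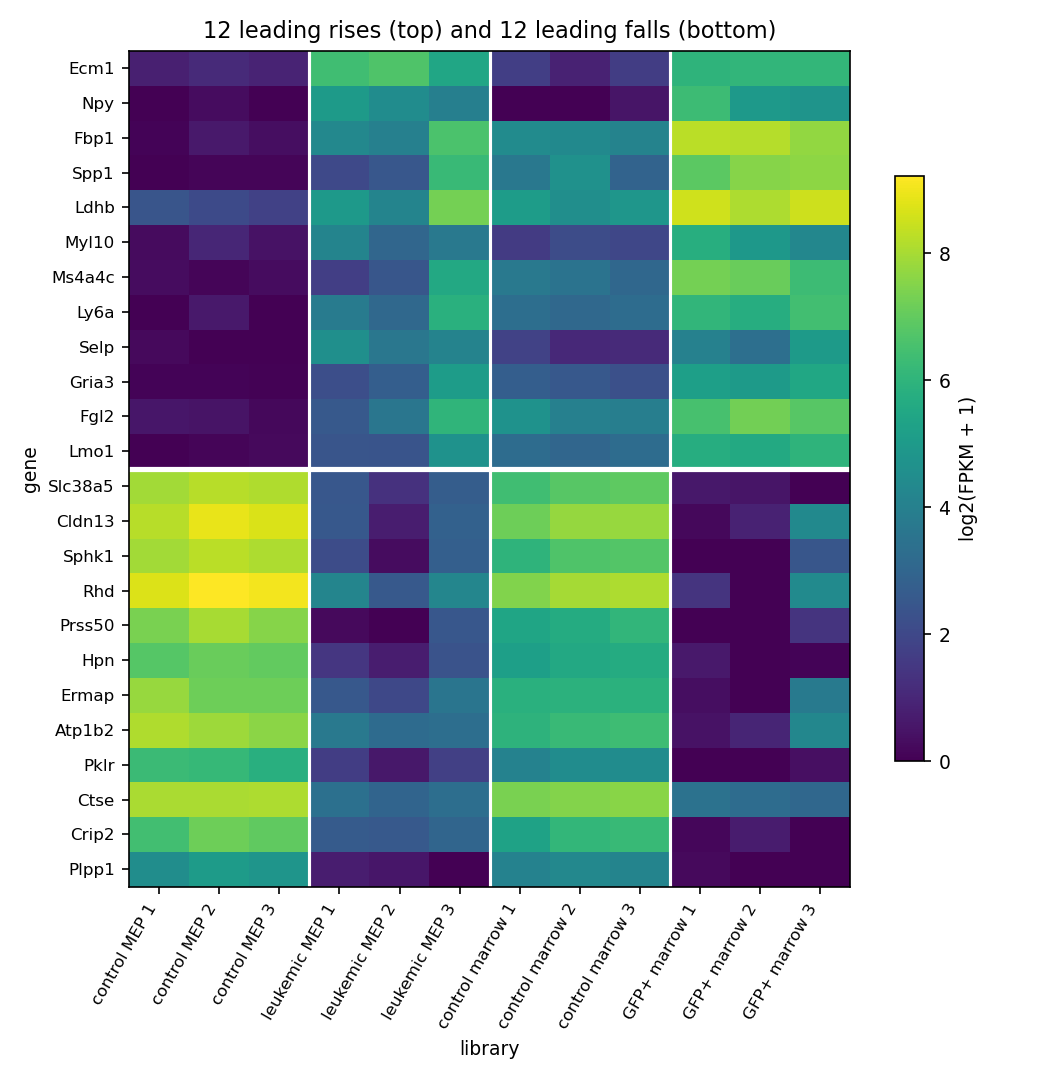
Level in log2(FPKM + 1), as colour, of the 12 leading rises (upper rows) and 12 leading falls (lower rows) in each of the 12 libraries (columns), with white lines between groups. Ecm1 and Npy are low in all control libraries, whereas Fbp1, Spp1 and Ldhb are already present in control marrow; leukemic MEP 3 shows higher Fbp1, Spp1 and Ldhb than leukemic MEP 1 and 2.

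The promoters of leading members, from 250 bases before the RefSeq start to 50 bases after it, are printed because they allow the red cell genes to be read for the GATA motif that GATA1 recognises. They come from RefSeq (GRCm38.p6), read 5′ to 3′ on the gene's strand, and are those of the first 3 rises and first 3 falls held in the table; Cldn13 was not held. Capitals mark, on either strand, the GATA factor motif AGATAA, the PU.1 motif GAGGAAGT, the ETS motif CCGGAAGT and the E-box motif CAGCTG. Ecm1 lies at chr3:95739520-95739819 (minus strand), Npy at chr6:49822460-49822759 (plus strand) and Fbp1 at chr13:62888233-62888532 (minus strand). Slc38a5 lies at chrX:8271131-8271430 (plus strand), Sphk1 at chr11:116530850-116531149 (plus strand) for the first of its 5 starts in the table, and Rhd at chr4:134864286-134864585 (plus strand).
Slc38a5: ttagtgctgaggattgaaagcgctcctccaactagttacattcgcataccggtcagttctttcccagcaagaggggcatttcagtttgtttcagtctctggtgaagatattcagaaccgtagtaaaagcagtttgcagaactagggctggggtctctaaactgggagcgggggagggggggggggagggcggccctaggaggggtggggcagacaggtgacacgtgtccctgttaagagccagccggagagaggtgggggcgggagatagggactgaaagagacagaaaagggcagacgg
Sphk1: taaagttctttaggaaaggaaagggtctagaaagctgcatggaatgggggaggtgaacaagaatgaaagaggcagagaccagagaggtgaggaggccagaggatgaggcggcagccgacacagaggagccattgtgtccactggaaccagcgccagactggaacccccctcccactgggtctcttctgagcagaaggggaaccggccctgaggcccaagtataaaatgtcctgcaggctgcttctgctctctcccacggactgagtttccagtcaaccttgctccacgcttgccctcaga
Rhd: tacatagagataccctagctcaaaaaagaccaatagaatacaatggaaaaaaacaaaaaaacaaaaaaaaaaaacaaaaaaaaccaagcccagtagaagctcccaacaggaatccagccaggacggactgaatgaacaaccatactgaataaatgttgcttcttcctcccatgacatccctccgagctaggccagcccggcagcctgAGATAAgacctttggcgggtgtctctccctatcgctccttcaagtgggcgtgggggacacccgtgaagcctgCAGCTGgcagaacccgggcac
Ecm1: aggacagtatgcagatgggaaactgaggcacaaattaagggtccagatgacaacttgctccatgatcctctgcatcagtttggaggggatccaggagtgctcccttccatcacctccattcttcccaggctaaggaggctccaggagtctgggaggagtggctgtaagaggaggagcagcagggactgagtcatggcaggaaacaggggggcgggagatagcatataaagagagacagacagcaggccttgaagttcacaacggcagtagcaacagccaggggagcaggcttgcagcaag
Npy: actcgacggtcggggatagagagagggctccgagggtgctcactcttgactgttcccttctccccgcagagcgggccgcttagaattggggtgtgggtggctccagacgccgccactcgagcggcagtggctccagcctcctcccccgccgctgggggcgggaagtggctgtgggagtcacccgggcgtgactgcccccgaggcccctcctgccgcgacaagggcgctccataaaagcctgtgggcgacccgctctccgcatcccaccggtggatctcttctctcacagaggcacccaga
Fbp1: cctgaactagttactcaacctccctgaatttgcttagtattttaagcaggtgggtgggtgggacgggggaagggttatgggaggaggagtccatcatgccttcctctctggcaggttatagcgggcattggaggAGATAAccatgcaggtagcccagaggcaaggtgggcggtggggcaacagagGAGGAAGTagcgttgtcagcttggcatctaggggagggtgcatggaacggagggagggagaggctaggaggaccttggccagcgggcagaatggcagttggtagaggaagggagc
In these windows AGATAA was found for Rhd and Fbp1 and for none of the other 4, and Fbp1 also held GAGGAAGT and Rhd CAGCTG. Other forms of the GATA motif, such as the AGATAG in the Slc38a5 and Ecm1 windows, were neither marked nor counted.

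Over the members with a promoter in the table, AGATAA was in 35 of 268 falls (13.1%) and 12 of 183 rises (6.56%). It was in 6.62% of the 9173 tested genes with a promoter and in 11.4% of all 27025 promoters. The falls thus held it at about the share of all promoters and above that of the tested genes, and the rises at that of the tested genes. GAGGAAGT was in 2.24% of falls, 4.92% of rises and 3.46% of tested genes, and CCGGAAGT in 5.6%, 3.28% and 9.1%. CAGCTG was in 14.6%, 19.7% and 14.3%. The KLF motif CCNCNCCC, which is too frequent to mark, was in 66.4%, 65.6% and 67.5%. Over all promoters these 4 motifs were in 3.28%, 4%, 16.1% and 49.1%. A match is a description of the letters and was not tested as a site.

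Haem and iron genes fell with the red cell genes. Of 25 tested members 16 fell and 2 rose on the average, and 8 fell and 1 rose in both populations, with a median average change of -1.32. Those that fell in both included the haem pathway enzymes Uros, Urod, Cpox and Fech, the iron handling genes Steap3 and Slc11a2, and Blvrb, a reductase of haem breakdown products. Fech, which inserts iron into haem, was at 181, 128 and 151 FPKM in the control MEP libraries, 25.1, 35.2 and 24.1 in those of leukemic MEP, 112, 105 and 98.0 in control marrow and 25.7, 38.9 and 13.2 in GFP+ marrow. Steap3, a ferrireductase of endosomes, was at 108, 95.6 and 83.1 FPKM in control MEP, at 6.30, 5.89 and 5.27 in leukemic MEP, at 30.4, 44.7 and 44.8 in control marrow and at 3.23, 3.79 and 13.7 in GFP+ marrow. Both were below every control library in all 6 Prdm16s libraries. Fech fell by 2.25 ± 0.23 and Steap3 by 3.21 ± 0.28 (limma, adjusted p = 2.24e-05 and 7.11e-06).

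Slc48a1, a haem transporter, rose by 0.80 in MEP and 0.81 in marrow (limma, adjusted p = 0.0102 and 0.0221), though not in both with equal FPKM totals. Its call in both held in 17 of 23 alternative fits. Tfrc, the transferrin receptor, counted in the erythroid list and picked after its values were seen, was at 107, 64.6 and 88.2 FPKM in the control MEP libraries, 19.2, 27.0 and 25.7 in those of leukemic MEP, 49.9, 43.3 and 38.1 in control marrow and 11.5, 18.5 and 16.5 in GFP+ marrow. It fell by 1.80 and 1.45, with no overlap between Prdm16s and control libraries.

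Genes of DNA replication fell without any rising. Of 34 tested members 23 fell on the average and 6 in both populations, namely Ccne1, Cdc6, Cdt1, Mcm2, Mcm7 and Gins2. The list median was -0.71. Ccne1, the cyclin that opens S phase, was at 176, 191 and 187 FPKM in control MEP, at 17.8, 19.3 and 10.3 in leukemic MEP, at 75.4, 98.2 and 87.0 in control marrow and at 23.6, 21.8 and 40.8 in GFP+ marrow. All Prdm16s libraries were below all controls, and the fall of 3.51 in MEP was larger than that of 1.61 in marrow (difference -1.90 ± 0.39, limma adjusted p = 0.0158). Cdc6, which loads the replicative helicase onto origins, fell by 1.83 and 1.37. Of 27 mitosis genes, 5 fell on the average and Plk1 in both, shares near those of all tested genes (15.7% and 3.03%).

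Cdkn2c and Cdkn1c, inhibitors of cyclin-dependent kinases, rose in both populations. Cdkn2c, the INK4 inhibitor p18, was at 1.19, 1.85 and 3.04 FPKM in the control MEP libraries, 18.1, 39.5 and 15.6 in those of leukemic MEP, 4.10, 3.16 and 5.69 in control marrow and 21.0, 37.4 and 12.3 in GFP+ marrow. Every Prdm16s library was above every control library, and the average rise was 2.55 ± 0.31 (limma, adjusted p = 9.1e-05). Cdkn1c, the inhibitor p57, was at 0, 0.0693 and 0 FPKM in control MEP, at 0.647, 1.39 and 9.48 in leukemic MEP, at 0.0690, 0.111 and 0.720 in control marrow and at 32.6, 27.7 and 35.8 in GFP+ marrow. It was close to 0 in all controls and highest in GFP+ marrow, and its rise of 1.76 in MEP (limma, adjusted p = 0.0303) came down to 0.96 without leukemic MEP 3 (adjusted p = 0.0317). The rise in marrow was larger by 2.94 ± 0.76 (limma, adjusted p = 0.0455). These were the only 2 of 15 tested members of the G1 cyclin and inhibitor list called in both. Cdkn1c was called in both in 17 of 23 alternative fits, and not without any 1 library of control MEP. On the average 5 rose, and Cdk4 fell.

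Genes of ribosome building fell together on the average, 27 of 30 members falling and none rising, with 7 falling in both and a median of -0.86. Ncl, the nucleolar protein nucleolin, was at 233, 174 and 176 FPKM in the control MEP libraries, 75.3, 89.1 and 62.9 in those of leukemic MEP, 105, 112 and 98.6 in control marrow and 60.8, 50.7 and 47.4 in GFP+ marrow. It fell by 1.16 ± 0.14 and Gnl3, the nucleolar GTPase nucleostemin, by 1.25 ± 0.16 (limma, adjusted p = 9.64e-05 and 0.000146). The other 5 that fell in both were Nolc1, Nop2, Rrp9, Wdr43 and Polr1b. Both Ncl and Gnl3 lost the call in both populations without control marrow 2.

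Synthesis genes fell in smaller number. In the serine, one-carbon and nucleotide list 17 of 28 fell on the average, none rose, and Mthfd1, Cad and Ctps fell in both. Ctps was called in both in 13 of 23 alternative fits, and not without any 1 library of control marrow. Mthfd1, a folate enzyme, was at 324, 164 and 169.7 FPKM in control MEP, at 29.3, 21.2 and 42.3 in leukemic MEP, at 85.9, 80.9 and 78.9 in control marrow and at 18.4, 17.6 and 39.96 in GFP+ marrow. It fell by 2.77 in MEP and 1.76 in marrow. In the amino acid list 19 of 30 fell and 2 rose on the average, and Slc38a5, Slc43a1, Gars and Asns fell in both. Asns, asparagine synthetase, was at 426, 377 and 404 FPKM in the control MEP libraries, 29.9, 33.1 and 21.7 in those of leukemic MEP, 139, 165 and 187 in control marrow and 22.2, 43.3 and 24.9 in GFP+ marrow. No Prdm16s library was above 43.3 FPKM and no control below 139, and its fall of 3.13 ± 0.18 had an adjusted p of 4.01e-07 (limma).

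Energy genes divided. Of 35 oxidative phosphorylation genes 18 fell on the average and none rose, but none was called in both populations (limma). At an unadjusted p under 0.05 in each test, 6 fell in both, and limma-voom called 2. Of 33 genes of glycolysis, the pentose phosphate pathway and hypoxia, 12 rose and 4 fell on the average. Ldhb, Pfkp and Pgk1 rose in both, while Pklr and Pfkm fell in both. Pfkm and Pfkp encode the muscle and platelet forms of phosphofructokinase, and Pklr the red cell form of pyruvate kinase. Pfkm was at 75.5, 52.3 and 52.7 FPKM in control MEP, at 14.3, 10.3 and 12.1 in leukemic MEP, at 23.7, 25.3 and 27.6 in control marrow and at 6.62, 5.47 and 7.97 in GFP+ marrow, with all Prdm16s libraries below all controls.

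Among the leading rises, Ecm1 and Npy encode secreted proteins. Ecm1, a secreted matrix glycoprotein (chromosome 3 from 95734147 to 95739876), was at 0.735, 1.13 and 0.883 FPKM in the control MEP libraries, 83.4, 100.5 and 43.2 in those of leukemic MEP, 2.26, 0.853 and 2.21 in control marrow and 62.5, 65.9 and 68.2 in GFP+ marrow. No control library exceeded 2.26 FPKM and no Prdm16s library was below 43.2. The average rise was 4.94 ± 0.23 (limma, adjusted p = 9.05e-08), 5.24 in MEP and 4.63 in marrow. Npy, the secreted peptide neuropeptide Y (chromosome 6 from 49822710 to 49829507), was at 0, 0.238 and 0 FPKM in control MEP, at 31.5, 21.3 and 14.8 in leukemic MEP, at 0, 0 and 0.4504 in control marrow and at 79.8, 29.6 and 26.1 in GFP+ marrow. No read was found in 4 of its 6 control libraries, and all Prdm16s libraries were at 14.8 FPKM or more.

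Krt18, the intermediate filament keratin 18, picked after its values were seen, was at 3.37, 1.73 and 3.09 FPKM in the control MEP libraries, 106, 60.5 and 31.1 in those of leukemic MEP, 11.7, 14.4 and 9.07 in control marrow and 83.6, 90.0 and 46.4 in GFP+ marrow. The Prdm16s libraries were all above the controls, and the lowest was leukemic MEP 3. Its rise was 4.03 in MEP and 2.51 in marrow (limma, adjusted p = 2.77e-05 and 0.00238). Myl10, a myosin light chain, was at 0.195, 0.977 and 0.381 FPKM in control MEP, at 16.6, 7.22 and 12.2 in leukemic MEP, at 2.07, 3.43 and 2.88 in control marrow and at 54.5, 29.4 and 18.3 in GFP+ marrow. Its changes in the populations were close, 3.06 and 3.09, with a difference of -0.03 ± 0.57 (SE).

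**Figure D3:**
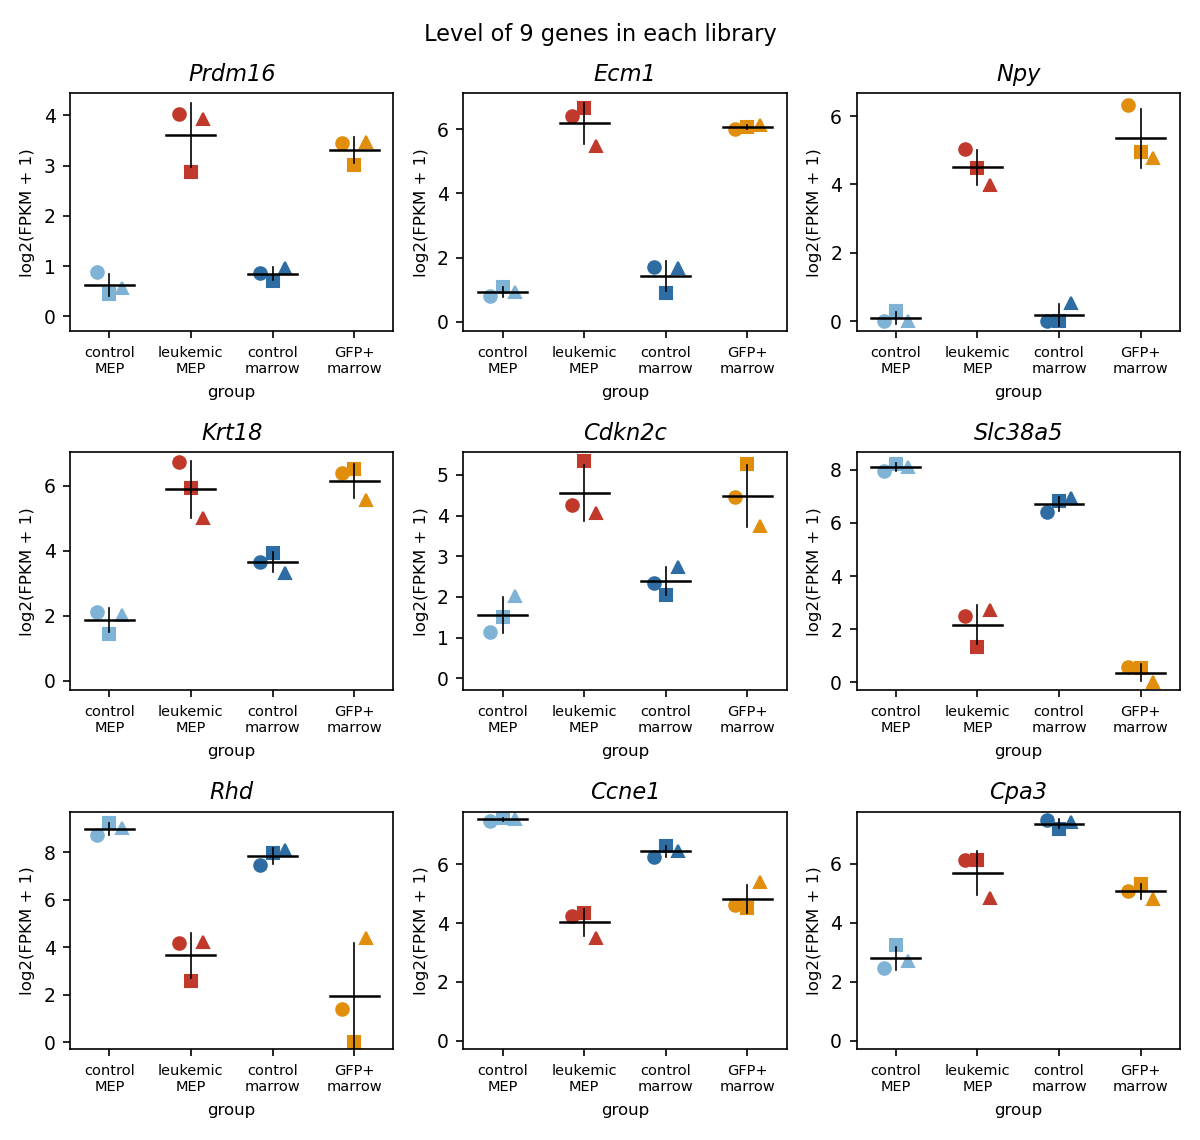
Level in log2(FPKM + 1) of 9 genes in the 4 groups; circles, squares and triangles are replicates 1, 2 and 3, and black lines the mean and 1 SD (n = 3). Prdm16, Ecm1, Npy, Krt18 and Cdkn2c are higher and Slc38a5, Rhd and Ccne1 lower in both Prdm16s groups, while Cpa3 is higher in leukemic MEP and lower in GFP+ marrow than in the matching controls.

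Other leading rises were already expressed in control marrow and rose further. Fbp1, the gluconeogenic fructose bisphosphatase (chromosome 13 from 62864753 to 62888298), was at 0.0726, 0.546 and 0.283 FPKM in the control MEP libraries, 18.9, 15.2 and 97.4 in those of leukemic MEP, 20.6, 19.7 and 16.5 in control marrow and 309.5, 293 and 210.5 in GFP+ marrow. The GFP+ marrow libraries were far above those of control marrow, and all of leukemic MEP above control MEP. Ldhb, the B subunit of lactate dehydrogenase, was at 4.45, 3.20 and 2.46 FPKM in control MEP, at 30.8, 16.9 and 155 in leukemic MEP, at 33.4, 22.8 and 27.7 in control marrow and at 372, 268 and 369 in GFP+ marrow. Spp1, the secreted phosphoprotein osteopontin, was at 0, 0.0811 and 0.0843 FPKM in the control MEP libraries, 3.09, 4.65 and 74.7 in those of leukemic MEP, 12.03, 24.6 and 6.59 in control marrow and 119, 186 and 199 in GFP+ marrow. Leukemic MEP 3 was the highest of its group for Fbp1, Ldhb and Spp1. Without it the MEP rise was 3.81 for Fbp1, 2.47 for Ldhb and 2.19 for Spp1, against 4.62, 3.38 and 3.51 with it, and all 3 were still called in both populations (limma).

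Ly6a, the surface antigen Sca-1 of mouse stem cells, was at 0, 0.537 and 0 FPKM in control MEP, at 13.4, 7.69 and 56.8 in leukemic MEP, at 9.09, 7.65 and 8.62 in control marrow and at 66.0, 52.7 and 86.1 in GFP+ marrow. Ms4a4c, a membrane protein of the MS4A family, was at 0.249, 0.0781 and 0.243 FPKM in the control MEP libraries, 2.24, 4.47 and 46.6 in those of leukemic MEP, 12.1, 10.5 and 7.37 in control marrow and 155, 138 and 79.5 in GFP+ marrow. Fgl2, a fibrinogen-like protein, was at 0.456, 0.393 and 0.148 FPKM in control MEP, at 4.96, 11.1 and 64.0 in leukemic MEP, at 24.8, 15.2 and 14.5 in control marrow and at 91.2, 151 and 113 in GFP+ marrow. For each, leukemic MEP 3 was the highest leukemic MEP library by several fold, and the Prdm16s and control libraries did not overlap within a population. Without leukemic MEP 3 the MEP rise was 3.27 for Ly6a, 1.83 for Ms4a4c and 2.68 for Fgl2, against 4.07, 2.99 and 3.66 with it. Ly6a and Ms4a4c have close relatives in the genome, between which reads may have been divided. Gria3, a glutamate receptor subunit, and Lmo1, a LIM-only transcription cofactor, rose by 3.28 and 3.06 in MEP and 2.73 and 2.59 in marrow. In leukemic MEP 1, 2 and 3 Gria3 was at 3.64, 5.80 and 33.0 FPKM and Lmo1 at 4.44, 4.32 and 24.7. Without leukemic MEP 3 their MEP rises were 2.41 and 2.31. Of the 24 leading genes, 21 were called in both populations in each of 23 alternative fits. Spp1, Ms4a4c and Fgl2 each lost the call in some fits, among them, for each, the fit without control marrow 3.

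Megakaryocyte and platelet genes rose on the average but seldom in both populations. Of 32 tested members 21 rose and none fell on the average, with a median of 1.48, yet only Selp, Fli1 and Thbs1 rose in both. The median change was 3.13 in MEP and 0.04 in marrow. Selp, the adhesion receptor P-selectin, was at 0.187, 0 and 0 FPKM in the control MEP libraries, 23.0, 11.7 and 16.6 in those of leukemic MEP, 2.49, 1.10 and 1.15 in control marrow and 15.4, 9.43 and 31.3 in GFP+ marrow. All Prdm16s libraries were above all controls, and the rise was 4.05 in MEP and 2.82 in marrow (limma, adjusted p = 2.6e-05 and 0.00111). Fli1, the ETS factor of megakaryocytes, was at 3.52, 4.66 and 2.55 FPKM in control MEP, at 103, 99.5 and 55.9 in leukemic MEP, at 52.6, 32.9 and 35.1 in control marrow and at 70.5, 83.2 and 88.8 in GFP+ marrow. It rose by 4.22 in MEP and 1.01 in marrow (limma, adjusted p = 2.01e-06 and 0.0443), a difference of 3.21 ± 0.40 (adjusted p = 0.000964), and it was called in both populations in 11 of 23 alternative fits. The call was lost without any 1 control MEP or GFP+ marrow library, without control marrow 2 or 3, and with equal FPKM totals or the Xist term. Itga2b, the platelet integrin, had an MEP rise of 3.36 (limma, adjusted p = 0.000611) and a marrow change of -0.91 (adjusted p = 0.315).

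Granulocyte lists also rose on the average, and few members were called in both populations by limma. Of 13 primary granule genes 11 rose and 1 fell on the average and Cd63 alone rose in both (limma). At an unadjusted p under 0.05 in each test 5 rose in both, and limma-voom called 5. The mean level of this list was 2.14 to 3.93 log2 units in control MEP. It was 5.82, 6.19 and 9.71 in leukemic MEP 1, 2 and 3, 9.13 to 9.30 in control marrow and 9.71 to 10.2 in GFP+ marrow. The mean level of 26 mature neutrophil genes was 0.785 to 1.75 in control MEP and 3.06, 3.34 and 8.39 in leukemic MEP 1, 2 and 3. It was 7.93 to 8.10 in control marrow and 7.67 to 8.59 in GFP+ marrow. Of these 26 genes 8 rose on the average and 1 in both. That gene, Padi4, the enzyme that citrullinates histones in neutrophils, was at 0.0397, 0.0497 and 0.103 FPKM in the control MEP libraries, 41.1, 35.7 and 199 in those of leukemic MEP, 35.1, 32.4 and 28.1 in control marrow and 149, 106 and 246 in GFP+ marrow. It was at 35.7 FPKM or more in every leukemic MEP library, and its MEP rise was 5.21 without leukemic MEP 3 (limma, adjusted p = 3.34e-07). Its call in both was lost without control marrow 2 or 3 or without GFP+ marrow 3.

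Spi1 and Cebpa, transcription factors of myeloid cells, rose in MEP, and their marrow changes did not pass the test. Of 22 myeloid regulators and receptors 10 rose on the average, none fell, and none was called in both populations, against 1 that rose in both at an unadjusted p under 0.05 and 4 by limma-voom. Spi1, the gene of PU.1, rose by 4.51 in MEP, and its marrow change was 1.06 (limma, adjusted p = 7.93e-05 and 0.245). Without leukemic MEP 3 the MEP rise was 3.74, and the marrow change was called (adjusted p = 0.0191). Cebpa, the factor that starts granulocyte formation, had an MEP rise of 2.25 (limma, adjusted p = 0.00329) and a marrow change of 0.91 (adjusted p = 0.245). Its MEP rise was 1.68 without leukemic MEP 3.

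Among 31 stem and progenitor genes 14 rose and 3 fell on the average, and Prdm16, Etv6, Ly6a and Ikzf2 rose in both. Of these, Prdm16 is the gene whose short form the Prdm16s cells express. Etv6, an ETS repressor needed by marrow stem cells, was at 7.35, 4.27 and 5.62 FPKM in control MEP, at 45.7, 28.1 and 44.7 in leukemic MEP, at 19.6, 17.6 and 21.5 in control marrow and at 33.6, 35.1 and 50.5 in GFP+ marrow. All Prdm16s libraries were above all controls, but its adjusted p in marrow was 0.0392 (limma). Etv6 was called in both in 14 of 23 alternative fits. The call was lost with equal FPKM totals, with a pseudocount of 0.1, without control MEP 3 and without any 1 library of control or GFP+ marrow. Kit, the stem cell factor receptor, fell on the average by 0.91 ± 0.31 (limma, adjusted p = 0.041) and was called in neither population. Its average call held in 11 of 23 alternative fits and was lost with the Xist term. Without leukemic MEP 3 the MEP change of Kit was -1.59 in place of -1.13, and it was called (limma, adjusted p = 0.00917). Meis1, a homeobox cofactor, and Cd34, a surface antigen of progenitors, rose in MEP by 3.92 and 2.82. Without leukemic MEP 3 the MEP rises were 5.09 and 1.83. Their marrow changes were -1.07 and -1.59, and neither passed the test (limma, adjusted p = 0.431 and 0.192), while without leukemic MEP 3 that of Cd34 did (adjusted p = 0.0204).

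Annexins, galectins and S100 proteins, which bind calcium, membranes or sugars, included shared rises. Of 20 tested members 11 rose and 1 fell on the average, and 5 rose (Anxa5, Lgals1, S100a1, S100a4 and S100a6) and 1 fell (Lgals9) in both. S100a6 was at 0.597, 0.935 and 0.389 FPKM in the control MEP libraries, 112, 83.4 and 149 in those of leukemic MEP, 31.7, 70.3 and 43.6 in control marrow and 124, 91.5 and 132 in GFP+ marrow. It rose by 6.11 in MEP and 1.30 in marrow, and the difference of 4.82 ± 0.43 passed the test (limma, adjusted p = 0.000172). S100a4 was at 1.08, 1.08 and 0.280 FPKM in control MEP, at 36.9, 52.5 and 121 in leukemic MEP, at 10.5, 26.0 and 14.001 in control marrow and at 83.7, 76.1 and 79.4 in GFP+ marrow, with all Prdm16s libraries above all controls. Lgals9, galectin 9, was at 1189.7, 1394 and 1245 FPKM in the control MEP libraries, 612, 508 and 212 in those of leukemic MEP, 602, 666 and 673 in control marrow and 263, 187 and 155 in GFP+ marrow; its fall was 1.65 in MEP and 1.71 in marrow. Anxa5, the phosphatidylserine-binding annexin, rose by 3.54 and 0.99 and was called in both in 16 of 23 alternative fits. Its call in both was lost with equal FPKM totals or the Xist term. The same held without any 1 library of control marrow or without GFP+ marrow 1 or 2.

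Genes of adhesion and the cell skeleton were called more often on the average than in both populations. In the actin and adhesion list 18 of 37 rose on the average, none fell, and Capg, which caps actin filaments, rose in both (limma; 5 by limma-voom). By population, 23 rose in MEP and 1 rose in marrow, and the difference over the list was not tested. Capg was at 59.3, 87.4 and 74.9 FPKM in control MEP, at 187, 153 and 167 in leukemic MEP, at 89.3, 92.3 and 96.9 in control marrow and at 227, 201.02 and 262 in GFP+ marrow, and its rises of 1.19 and 1.29 were close (difference -0.10 ± 0.28). In the list of leukocyte integrins and homing receptors 9 of 25 rose and 1 fell on the average, and Itga6 and Icam2 rose in both. Icam2 was called in both in 17 of 23 alternative fits, and not without any 1 library of control marrow. Itga6, the laminin receptor subunit, was at 1.68, 1.75 and 1.67 FPKM in the control MEP libraries, 13.2, 15.7 and 8.803 in those of leukemic MEP, 2.45, 2.27 and 3.22 in control marrow and 8.34, 13.1 and 10.4 in GFP+ marrow. All Prdm16s libraries were above all controls, and the average rise was 1.98 ± 0.19 (limma, adjusted p = 1.98e-05).

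The interferon, JAK-STAT and cell death lists each held 3 members, against 5.03% of all tested genes. On the average 14.9% of all tested genes were called higher and 15.7% lower. Of 30 interferon response genes 8 rose and 2 fell on the average; Ifitm3 and Oas1a rose and Usp18 fell in both. Ifitm3, a membrane protein that restricts virus entry, was at 55.3, 148 and 95.7 FPKM in control MEP, at 778, 802 and 529.7 in leukemic MEP, at 214, 316 and 246 in control marrow and at 978, 829 and 994 in GFP+ marrow. Usp18, the protease that removes ISG15, was at 15.2, 15.9 and 13.3 FPKM in the control MEP libraries, 5.53, 4.77 and 8.51 in those of leukemic MEP, 14.4, 11.3 and 14.8 in control marrow and 4.49, 5.75 and 2.33 in GFP+ marrow. Both separated all Prdm16s from all control libraries, in opposite directions. Of 20 genes of JAK-STAT signalling 6 rose and 1 fell on the average, and Stat3 and Pim2 rose and Epor fell in both. Stat3 rose by 2.502 in MEP and 1.09 in marrow (limma, adjusted p = 2.49e-05 and 0.0166), and with equal FPKM totals neither Stat3 nor Pim2 was called in both. Of 23 alternative fits Stat3 was called in both in 18 and Pim2 in 11. Pim2 lost the call without any 1 library of control MEP, control marrow or GFP+ marrow. Of 24 BCL2 family and p53 target genes 6 rose and 5 fell on the average, with Mcl1 and Bbc3 higher and Aen lower in both. Bbc3 promotes cell death and Mcl1 blocks it. Bbc3 was called in both in 11 of 22 alternative fits and Aen in 13 of 23, and each lost the call without any 1 library of control marrow.

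Dbi, Txnip, Cited2 and Id1, picked after their values were seen, also rose in both populations. Dbi, the acyl-CoA binding protein, was at 42.9, 134 and 129.6 FPKM in control MEP, at 315, 377 and 402 in leukemic MEP, at 133, 182 and 166 in control marrow and at 858, 872 and 552 in GFP+ marrow. Txnip, the thioredoxin inhibitor, was at 46.1, 36.9 and 24.8 FPKM in the control MEP libraries, 256, 172 and 212 in those of leukemic MEP, 57.0, 44.8 and 45.2 in control marrow and 116, 115 and 121 in GFP+ marrow. Both were above every control in all Prdm16s libraries. Cited2, a transcription cofactor of CBP and p300, rose by 3.69 in MEP and 1.498 in marrow, and Id1, an inhibitor of basic helix-loop-helix factors, by 3.70 and 2.26. The MEP rise of Id1 was 3.08 without leukemic MEP 3.

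Markers of other marrow cells are read against the 14.9% of all tested genes called higher and 15.7% called lower on the average. Of 20 B lymphoid genes 13 fell and 1 rose on the average (8 and 2 by limma-voom) and none was called in both (1 lower at an unadjusted p under 0.05, 2 lower by limma-voom). The mean list level was 3.29 to 3.56 in control marrow and 1.177 to 1.78 in GFP+ marrow. In control MEP it was 0.53 to 0.77, and 0.70 to 1.69 in the leukemic ones. Cd3e, a defining T cell gene, was at 0 in all 3 GFP+ marrow libraries and at 0.0933, 1.504 and 0 FPKM in control marrow. Of 14 T and NK genes 4 fell and 1 rose on the average (2 and 2 by limma-voom), and of 28 monocyte and macrophage genes 12 fell and 4 rose. Only S100a4 (higher) and Slc40a1 (lower) of these lists were called in both. None of the T and NK genes was called in both, also at an unadjusted p under 0.05 and by limma-voom. Among 13 genes of dendritic cells and class II presentation, 4 fell and 1 rose on the average. Of these, H2-Ab1, the beta chain of a class II molecule, fell in both, by 1.62 and 1.76. H2-Ab1 was called in both in 17 of 23 alternative fits, and not without any 1 library of control marrow. Mast cell, basophil and eosinophil genes moved in both directions (6 of 19 higher and 3 lower on the average), and Il1rl1, the interleukin 33 receptor, fell in both. It was at 16.0, 7.24 and 8.92 FPKM in control MEP, at 0.0253, 0 and 0.708 in leukemic MEP, at 5.02, 3.38 and 4.92 in control marrow and at 0.0431, 0 and 0 in GFP+ marrow. The part of these cells in the shared changes was not tested. Where a list above is said to have had no member rise or fall on the average (limma), none did so at an unadjusted p under 0.05 or by limma-voom either.

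**Figure D4:**
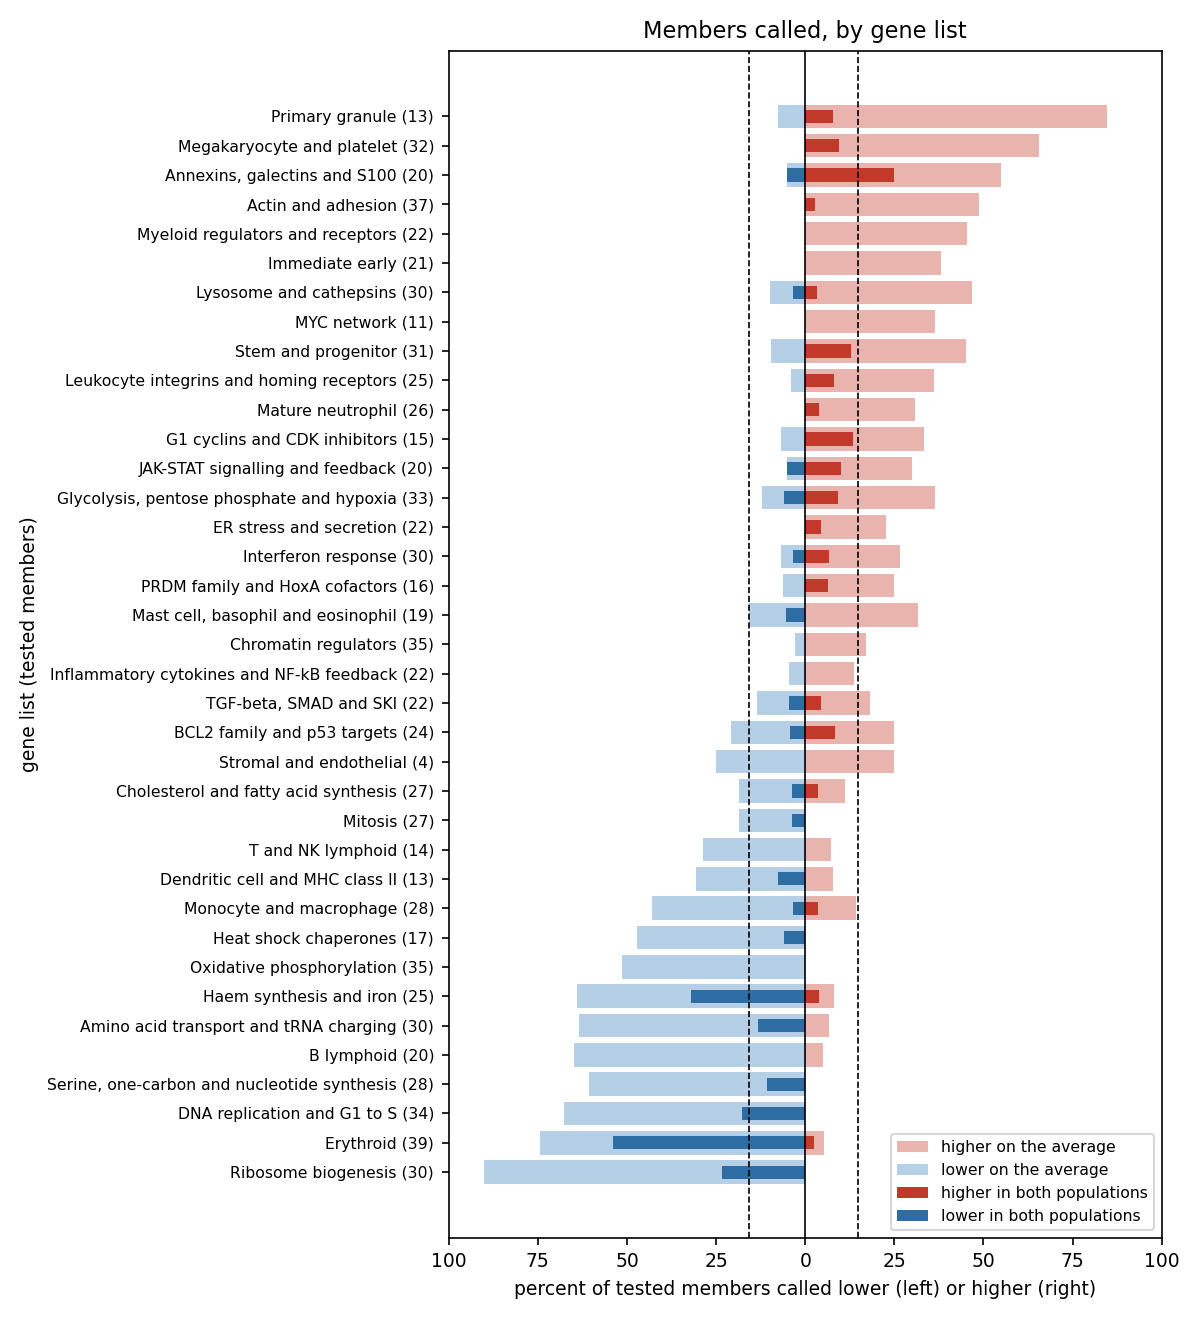
Percent of the tested members of each of 37 gene lists (vertical axis, with the number tested) called lower (left, blue) or higher (right, red) on the average (pale bars) and in both populations (dark bars); dashed lines mark 14.9% and 15.7% for all tested genes. The erythroid list has the most members called in both (21 lower of 39), and most lists that move on the average have few.

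Few genes moved in opposite ways, and all in 1 direction. The 31 genes called in both populations with opposite signs (0.27% of the tested genes) were all higher in leukemic MEP and lower in GFP+ marrow than in their controls. Cpa3, the carboxypeptidase of mast cell granules, was at 4.51, 8.42 and 5.48 FPKM in the control MEP libraries, 69.0, 69.1 and 27.7 in those of leukemic MEP, 179.9, 146 and 169.9 in control marrow and 32.7, 38.9 and 27.0 in GFP+ marrow. Both Prdm16s groups lay between the levels of control MEP and control marrow. Alox5, the 5-lipoxygenase of leukotriene synthesis, was at 2.16, 1.57 and 2.20 FPKM in control MEP, at 34.1, 39.1 and 25.2 in leukemic MEP, at 37.5, 24.4 and 36.6 in control marrow and at 11.7, 10.2 and 13.1 in GFP+ marrow. Btg2, an antiproliferative gene, changed by 2.77 and -1.87, and Cmtm3, a chemokine-like membrane protein, by 2.43 and -1.26. The differences between the populations for these 4, which were chosen for them, were 4.89 (Alox5), 5.21 (Cpa3), 4.64 (Btg2) and 3.68 (Cmtm3).

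The size of the change differed between the populations for some members. The test of the difference called 560 of all tested genes (4.89%), 39 of the 229 rises and 7 of the 347 falls. Of the 39 rises, 38 were larger in MEP, and Cdkn1c was larger in marrow. Of the 7 falls, Trim10, a red cell gene, was larger in marrow (-2.20 in MEP and -3.90 in marrow), and Ccne1 was larger in MEP. These calls come from the same comparisons that chose the members.

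The counts depended on single libraries. Without leukemic MEP 3 there were 502 rises and 536 falls, which held 217 of the 229 and 326 of the 347. Without control marrow 1, 2 or 3 there were 128, 95 and 95 rises, without GFP+ marrow 2 there were 144, and without control marrow 2 or 3 there were 180 and 187 falls. With the libraries rescaled to equal FPKM totals, which shifted the median of all genes to -0.11, there were 140 rises and 427 falls, so that 24.7% of members were higher against 39.8%. With limma-voom on the recovered reads there were 484 and 477 (50.4% higher), and with a term for the libraries that express Xist 918 and 914 (50.1%). The average change with that term rests on leukemic MEP 3 and GFP+ marrow 3 against the controls, so it does not separate sex from these libraries. Leaving out 1 library gave 17 to 22 erythroid falls, 4 to 12 haem and iron falls, 2 to 15 replication falls, 0 to 11 ribosome falls and 1 to 8 annexin, galectin and S100 rises. For the last 4 lists the highest count came without leukemic MEP 3 and the lowest without a library of control or GFP+ marrow, control marrow 2 for the ribosome list. In all 23 alternative fits, 64 rises and 125 falls were called in both populations, among them Prdm16, Ecm1, Npy, Slc38a5 and Rhd. A further alternative, not counted in the 23, fitted each population alone, so that the populations shared no estimate of the spread. It gave 289 rises and 323 falls, which held 161 of the 229 and 269 of the 347.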

How the data were processed

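The deposited table gives FPKM values that the authors computed for 24107 mouse genes in 12 libraries of sorted cells, made with Smart-seq2 and Nextera XT per the labels' protocols. Per the submitters' processing notes, the tools were CASAVA, bcl2fastq, STAR 2.5.3a and DESeq2 1.18.1, with mm10; for their roles, the read counter and the gene annotation, the sources used here give nothing. For all 16728 genes detected, the values came out as whole reads (tolerance 0.02 reads), which gave each library a depth of 0.572 to 9.71 M reads.

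Genes with at least 1 FPKM in 3 or more libraries (11462) were fitted with limma-trend (limma 3.58.1, R 4.3.3) on log2(FPKM + 1), all 4 groups together (residual degrees of freedom: 8). The average change weighs both populations equally. Each contrast was adjusted by Benjamini-Hochberg over all tested genes, with a threshold of 0.05, and errors are SE from the fit. An exact permutation test of single genes is not given, since the choice of leading genes fixes its result.

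The leading genes are the 12 rises and 12 falls with the largest smaller change of the 2 populations, 10 FPKM or more as the mean of some group, and no overlap within a population. That ranking excluded Xist, Y-linked and unnamed genes and receptor segments. Also named were 13 fixed genes, up to 4 members of a described list (the smallest p, and up to 2 against the majority) and the 4 opposite genes with the smallest p of the difference. Krt18, Cdkn2c, Itga6, Cited2, Txnip, Dbi, Ifitm3, Id1, Car1, Car2, Aqp1, Asns, Tfrc, Gata2, Tal1, Zfpm1 and the list members given by name as called in both were picked after their values were seen. The members, the 37 gene lists and the rules were chosen with earlier results of these data known. Gene positions and promoters are from RefSeq (GRCm38.p6), and 11456 tested genes matched by gene number. The alternatives were other pseudocounts, filters, scalings and weights, voom on the recovered reads, a replicate block, leaving out each library and, added after seeing the data, leaving out both libraries under 2 M reads and a term for the libraries that express Xist. The fit was tested on simulated reads. Recovery, promoters and plots used Python 3.11.15, numpy 2.4.6, matplotlib 3.10.9 and pandas 2.3.3.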

Additional observations from a re-analysis of the deposited data

Results flagged for a closer look

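For 27 of the genes named, the change in MEP differed from the change in marrow by the test of the difference itself (limma, adjusted p below 0.05). Values are the MEP change minus the marrow change in log2(FPKM + 1), and no cause was weighed. Among genes higher in both populations, the difference was 3.21 for Fli1, 1.59 for Cd63, 3.72 for Padi4, 2.87 for S100a4 and 4.82 for S100a6. It was 1.61 for Etv6, 2.56 for Anxa5, 1.41 for Stat3, 2.19 for Cited2 and 1.30 for Txnip, and -2.94 for Cdkn1c, which rose more in marrow. Among genes lower in both it was 1.70 for Trim10, which fell more in marrow, and -1.90 for Ccne1, which fell more in MEP.

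Among genes that were no members, it was 3.45 for Spi1, 4.26 for Itga2b, 4.99 for Meis1, 4.41 for Cd34 and 2.81 for Tmod1. For Lgals3, galectin 3, it was 3.99, and for the transcription factor Runx1 1.39. The B cell receptor gene Cd79b had 3.64, with 75.9, 28.7 and 31.3 FPKM in leukemic MEP against 0.959, 2.51 and 1.93 in control MEP. Klrd1, a receptor of NK cells, had 1.69 and the cytotoxic granule gene Nkg7 3.69. The genes with opposite directions had 4.89 (Alox5), 5.21 (Cpa3), 4.64 (Btg2) and 3.68 (Cmtm3).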

How the results depend on the processing

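The average change called 1707 genes higher and 1801 lower, and 3195 and 3073 with array weights. Genes higher in both populations numbered 229, against 140 with equal FPKM totals, 987 with array weights, 484 with voom on recovered reads, 435 without both libraries under 2 M reads, 918 with the term for the libraries that express Xist, 1017 by no overlap within either population with no test, and 95 to 502 leaving out 1 library. Genes lower in both numbered 347, against 1116 with array weights, 914 with the Xist term, 1093 by no overlap, and 180 to 536 leaving out 1 library. The difference between the populations called 560 genes, against 2966 with array weights, 893 with voom, 1052 without both shallow libraries, 973 with the Xist term, and 261 to 1086 leaving out 1 library. List members moved the same way numbered 95, against 262 with array weights, 149 with voom, 186 with the Xist term, and 50 to 170 leaving out 1 library. Libraries and settings that changed a count by over 1.5 times are named in the report for members; for the difference they were leukemic MEP 3 (1086 without it) and each control library (261 to 342). The Xist term and leaving out both shallow libraries were chosen after seeing the data. With the Xist term the average change sets leukemic MEP 3 and GFP+ marrow 3, the Prdm16s libraries without Xist, against the controls. The causes of these shifts were not tested.

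Of 2573 values of single genes and counts of 5 lists under the alternatives, 2435 kept their side of the threshold with no called value reversed, 96 lost the call, 10 gained it, 31 list counts moved by over 1.5 times, and the average change of Cst7 reversed, from -2.82 to 0.036 with the Xist term. The average changes of Meis1 and Cpa3, called in neither fit, also changed sign with that term, from 1.43 to -0.018 and from 0.30 to -0.26. With the replicate block 195 and 310 genes were called in both, and 1649 and 1725 on the average. Pairing within the comparisons was not seen: deviations of same-numbered libraries had correlations of -0.16, -0.05 and -0.15 in MEP and 0.02, -0.06 and 0.02 in marrow, and not every library correlated best with its own number. Across populations they were 0.50, 0.29 and 0.07 for controls and 0.09, 0.22 and 0.15 for Prdm16s, so same-numbered MEP and marrow may share a source, which was not tested. Depth limits leukemic MEP 3 and GFP+ marrow 2, where a gene at a few FPKM rests on few reads.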

Other observations

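Other lists held few members called in both populations, or none. Their counts on the average are read against 14.9% higher and 15.7% lower among all tested genes. Of 17 heat shock chaperone genes 8 fell on the average, and Hspd1, the mitochondrial chaperonin, fell in both populations, with changes of -1.94 in MEP and -0.88 in marrow. Of 22 genes of the endoplasmic reticulum stress response 5 rose on the average, and Dnajb9, a chaperone of that compartment, rose by 1.61 and 1.76. Of 27 cholesterol and fatty acid synthesis genes 3 rose and 5 fell on the average, near the shares of all tested genes. In both populations Scd2, a fatty acid desaturase, rose by 1.31 and 1.21, and Sqle, the squalene epoxidase, had changes of -1.67 and -1.27. Of 30 lysosomal genes 14 rose and 3 fell on the average, with Cd63 higher and Ctse lower in both. Of 22 genes of TGF-beta signalling 4 rose and 3 fell on the average, near the shares of all tested genes (14.9% and 15.7%), with Id1 higher and Eng, a coreceptor, lower in both (-0.70 and -0.81). Of 35 chromatin regulators 6 rose, near the share of all tested genes, and 1 fell on the average. None was called in both (limma). At an unadjusted p under 0.05, 4 rose and 1 fell in both, and limma-voom called 3. Of 11 genes of the MYC network 4 rose on the average and none was called in both, also at an unadjusted p under 0.05 and by limma-voom.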
